A study of Mus musculus with 2 samples.

Results

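Transcripts of 10 lysosomal proteases were followed through the leukocytes of mouse brown adipose tissue (BAT): the cathepsins *Ctsa*, *Ctsb*, *Ctsc*, *Ctsd*, *Ctsh*, *Ctsk*, *Ctsl*, *Ctss* and *Ctsz*, and legumain (*Lgmn*). They were taken by gene symbol, with earlier results of these data known, and are 10 of the 32285 genes in the count tables. All 10 were found in both tables. CD45+ Dapi- cells were sorted from BAT, and each condition gave 1 droplet library. A transcript was counted once through its unique molecular identifier (UMI). Both libraries came from male C57Bl/6 mice that carried AdipoQ-CreERT2, a tamoxifen-inducible Cre driven by the adiponectin promoter of adipocytes, and ATGLfl/fl, floxed alleles of adipose triglyceride lipase. Control mice received vehicle, and the mice called AdipoΔ/Δ received tamoxifen, which lets Cre act on the floxed alleles in adipocytes. The deletion itself could not be checked in sorted leukocytes. Injections ran for 1 week and were followed by 2 weeks of rest. The labels give an age of 16 weeks for both, whereas the study's text names a younger age, and how many mice were pooled is not stated. Tamoxifen itself and the loss of ATGL cannot be told apart between these libraries. As there was 1 library per condition, no difference between conditions was tested, and no value has an error between mice.

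Cathepsins are made as inactive precursors, reach the lysosome mostly through the mannose 6-phosphate route, and become active in its acid lumen. CTSB, CTSC, CTSH, CTSK, CTSL, CTSS and CTSZ are cysteine proteases, CTSD is an aspartic protease, CTSA is a serine carboxypeptidase that also shields other hydrolases, and legumain cuts after asparagine and helps to process other cathepsins. In macrophages they digest what the cell has engulfed, and CTSS and CTSL trim the invariant chain (CD74) of MHC class II molecules. Cystatins and stefins, the proteins of genes such as *Cst3* and *Cstb*, are their inhibitors.

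Positions of the 10 genes are given on the GRCm38 (mm10) build. *Ctsk* (ENSMUSG00000028111, chr3:95499256-95509362) and *Ctss* (ENSMUSG00000038642, chr3:95526786-95556403) are neighbours on the plus strand, 17423 bases apart. *Ctsb* (ENSMUSG00000021939) lies at chr14:63122462-63145923 on the plus strand, and *Ctsl* (ENSMUSG00000021477) at chr13:64359337-64370890 on the minus strand. *Ctsd* (ENSMUSG00000007891) is at chr7:142375911-142388038 on the minus strand, and *Ctsc* (ENSMUSG00000030560) at chr7:88278085-88310888 on the plus strand. *Ctsa* (ENSMUSG00000017760) is at chr2:164832873-164841032 on the plus strand, and *Ctsz* (ENSMUSG00000016256) at chr2:174427493-174439039 on the minus strand. *Ctsh* (ENSMUSG00000032359) is at chr9:90054152-90076089 on the plus strand, and *Lgmn* (ENSMUSG00000021190) at chr12:102394084-102439813 on the minus strand. All are protein coding. On its own strand *Ctsd* overlaps the gene model Gm49369, *Ctsl* overlaps Gm49230 and *Ctss* overlaps Hmgb1-ps5, none of which was among the counted genes.

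Many lysosomal genes carry the palindrome TCACGTGA near their start, the core of the element bound by TFEB and its relatives. It was sought on both strands in the RefSeq promoter windows of GRCm38.p6, from 250 bases before to 50 after each transcription start, together with its inner 6 letters CACGTG, which every copy of the palindrome contains. Of the 10 genes, 8 had a window, and *Ctsb* and *Ctsh* had none. TCACGTGA was present for 2 of the 8, *Ctsd* and *Ctsa*, and for 1.12% of the 27025 genes in the table. CACGTG was present for 4 of the 8, which adds *Lgmn* and *Ctsl*, and for 8.09% of all genes. GAGGAAGT, a motif of the myeloid factor PU.1, was present for *Ctsc* and *Ctss*, and for 3.69% of all genes. These matches are letters only, and binding was not measured here. The stretches around 4 of them are shown as examples, with the motif in capitals. Positions are counted from the RefSeq start site, and the letters run 5′ to 3′ on the strand of the gene. *Ctsd* is shown from -124 to -67 (chr7:142387894-142387951, minus), *Ctsa* from -38 to -1 (chr2:164833735-164833772, plus), *Lgmn* from -74 to -19 (chr12:102439111-102439166, minus) and *Ctsc* from -176 to -119 (chr7:88277909-88277966, plus, with GAGGAAGT on the other strand). The RefSeq starts used for *Ctsd*, *Ctsa* and *Lgmn* lie within the gene spans given above, so their stretches are inside those spans.
Ctsd: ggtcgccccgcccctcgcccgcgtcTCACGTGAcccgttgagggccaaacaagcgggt
Ctsa: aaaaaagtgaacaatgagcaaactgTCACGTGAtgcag
Lgmn: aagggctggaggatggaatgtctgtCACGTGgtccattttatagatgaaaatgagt
Ctsc: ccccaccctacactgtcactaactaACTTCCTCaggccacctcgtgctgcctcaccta

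Of 2597 control and 2381 AdipoΔ/Δ barcodes, 2279 and 2016 were kept as cells, with 10753113 and 11316418 UMIs. *Ptprc*, which encodes CD45, had a UMI in 80.4% of the cells of either library. Only 4 barcodes occurred in both. Cells of both libraries were clustered together, without the 10 proteases and other lysosomal genes among the features, and 16 of 18 clusters were named from marker genes as 13 classes. Macrophage-like cells fell into M2 (86 control and 174 AdipoΔ/Δ cells), matrix (50 and 173) and lipid-associated (13 and 90) subsets. The matrix cluster was named through its subset list, with 6 of the 9 general macrophage markers detected and a general macrophage score below 0 (-0.83). The 13 control lipid-associated cells were shallow, with a median of 1348 UMIs against 11846.5 in the 90 AdipoΔ/Δ cells, so that control values of this subset rest on 32973 UMIs in all and 1 cell with 8709 of them. A cluster led by *Lpl* (24 control and 143 AdipoΔ/Δ cells, medians of 1163 and 795 UMIs) and one led by Gm26917 (41 and 76 cells) stayed unnamed.

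The 10 proteases took 0.260% of all UMIs in the control library and 0.525% in the AdipoΔ/Δ library. Levels are given as CPM, the UMIs of a gene per 1000000 UMIs of its class, with exact 95% Poisson intervals in parentheses that cover counting error only. Since only the 3′ end of a transcript is counted, CPM of different genes were compared without a correction for length. In both libraries, the summed level was highest in lipid-associated macrophage-like cells, at 17044 CPM (15664 to 18513) in control and 17684 CPM (17443 to 17928) in AdipoΔ/Δ. Without its largest cell, the control value was 14095 CPM. M2 macrophage-like cells followed with 6798 and 9380 CPM, Ly6Clow monocyte-like cells with 4602 and 6172 CPM, and Ly6Chigh monocyte-like cells with 4216 and 5153 CPM. Matrix macrophage-like cells had 3448 and 4733 CPM, less than either monocyte class. Dendritic cell-like cells had 1963 and 2415 CPM and neutrophil-like cells 1204 and 1975 CPM. T cell-like cells were lowest, with 469 and 701 CPM. The unnamed clusters led by *Lpl* and Gm26917 stood at 2947 and 3719 CPM in control and at 7427 and 6351 CPM in AdipoΔ/Δ. This order of the first 6 classes was the same in both libraries, and no interval met that of the next class. By single gene, 9 of 10 proteases were highest in a macrophage-like subset in control and 10 of 10 in AdipoΔ/Δ (7 in the lipid-associated subset of either library). The exception was *Ctsk* in control, which had 4 UMIs in the whole library. In control, the *Ctsa* interval of the leading M2 cells (379 to 511) met that of Ly6Clow monocyte-like cells (320 to 382). How many of all genes were highest in these subsets was not counted, so these counts have no background.

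**Figure D1:**
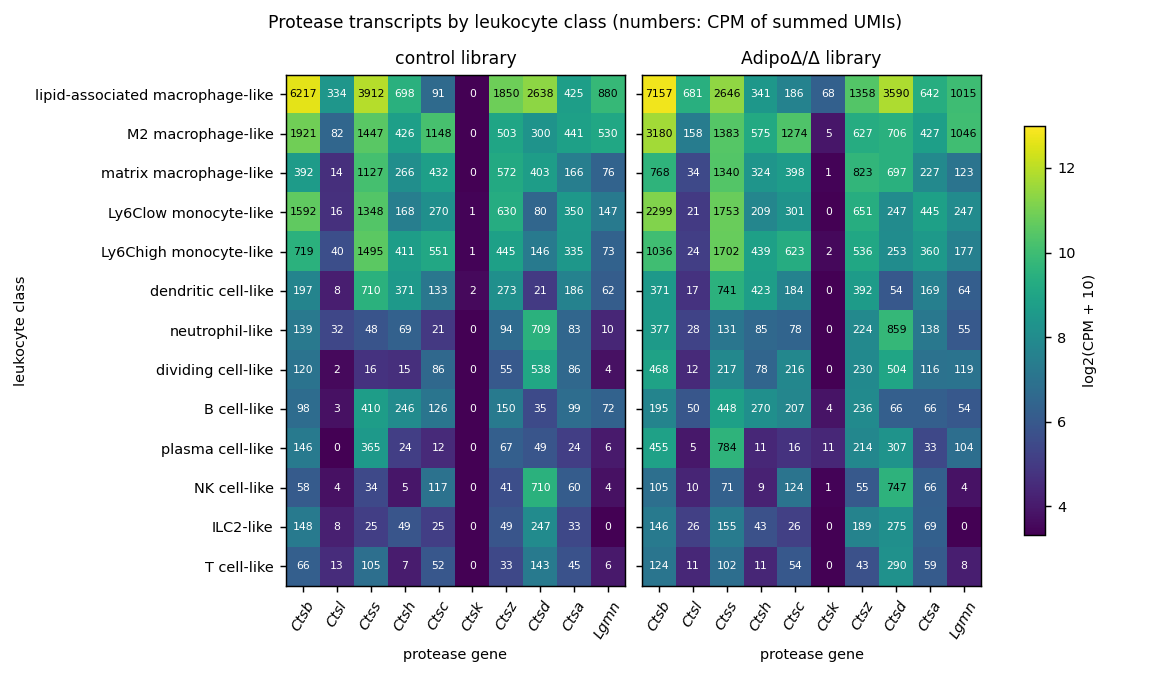
CPM of summed UMIs for each protease gene (columns) in each leukocyte class (rows), in the control library (left) and the AdipoΔ/Δ library (right), with colour on a log2(CPM + 10) scale. Lipid-associated macrophage-like cells lead most columns, *Ctsd* is also high in neutrophil- and NK cell-like rows, and *Ctsk* stands at 68 CPM in AdipoΔ/Δ lipid-associated cells and below 12 CPM in every other named class.

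Among the endopeptidases, *Ctsb* had the highest level of the 10 genes in any class. In lipid-associated cells it stood at 6217 CPM (5395 to 7129) in control and 7157 CPM (7003 to 7313) in AdipoΔ/Δ. M2 macrophage-like cells had 1921 and 3180 CPM of *Ctsb*, Ly6Clow monocyte-like cells 1592 and 2299 CPM, and Ly6Chigh monocyte-like cells 719 and 1036 CPM. The order of these 4 classes did not change between libraries, and their intervals did not meet. Matrix macrophage-like cells had only 392 and 768 CPM of *Ctsb*, below both monocyte classes.

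*Ctss*, the cathepsin of antigen-presenting cells, was spread over all mononuclear phagocytes. Among the M2, matrix and both monocyte classes of control, it lay between 1127 CPM in matrix macrophage-like and 1495 CPM in Ly6Chigh monocyte-like cells. The *Ctss* interval of M2 macrophage-like cells (1447 CPM) met those of both monocyte classes. In lipid-associated cells it reached 3912 CPM (3266 to 4649) in control and 2646 CPM (2553 to 2741) in AdipoΔ/Δ. B cell-like cells held 410 and 448 CPM of *Ctss* and dendritic cell-like cells 710 and 741 CPM, while NK cell-like cells held 33.7 and 70.5 CPM.

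Among the named classes, *Ctsl* was low outside lipid-associated and M2 macrophage-like cells. Its level was 334 CPM in control lipid-associated cells, from 11 UMIs (167 to 597), and 681 CPM (635 to 731) in AdipoΔ/Δ. Without the largest cell the control value was 164.8 CPM. M2 macrophage-like cells had 81.8 and 158 CPM of *Ctsl*, Ly6Chigh monocyte-like cells 40.1 and 24.5 CPM, and matrix macrophage-like cells 14.4 CPM (4 UMIs) and 34.1 CPM.

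*Ctsk*, best known as the collagen-degrading cathepsin of osteoclasts, was detected almost only in one place. The control library held 4 UMIs in 2279 cells, none in a macrophage-like cell. In the AdipoΔ/Δ library it held 94 UMIs, of which 79 (84.0%) were in lipid-associated cells, at 68.3 CPM (54.1 to 85.1) and in 22.2% of those cells. M2 macrophage-like cells of the same library held 6 UMIs and matrix macrophage-like cells 1. In control lipid-associated cells, 0 UMIs have an exact upper limit of 112 CPM (91.0 CPM at a floor of 3 counts), so that the depth of this subset could not show a difference. Over all macrophage-like cells, AdipoΔ/Δ stood at 23.7 CPM from 86 UMIs against 0 in control. This was 5.63-fold above a floor of 3 control counts (4.20 CPM), and the conditional interval of the ratio began at 4.48. Lipid-associated cells, with 79 of these 86 UMIs, supplied 4.62% of the macrophage-like UMIs in control and 31.8% in AdipoΔ/Δ. The part of this mixture in the pooled *Ctsk* ratio was not tested. Its neighbour *Ctss* was detected in 89.5% of control and 95.4% of AdipoΔ/Δ M2 macrophage-like cells, in which *Ctsk* held 0 and 6 UMIs. In AdipoΔ/Δ both genes were highest in lipid-associated cells, where *Ctss* stood at 2646 CPM.

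The exopeptidases split into separate patterns. *Ctsc*, dipeptidyl peptidase I, which activates granule proteases of cytotoxic cells and neutrophils, peaked in M2 macrophage-like cells at 1148 CPM (1045 to 1257) in control and 1274 CPM (1211 to 1340) in AdipoΔ/Δ. It was low in lipid-associated cells, at 91.0 CPM from 3 UMIs and at 186 CPM (162 to 213). Ly6Chigh monocyte-like cells had 551 and 623 CPM of *Ctsc*, against 270 and 301 CPM in Ly6Clow monocyte-like cells, and NK cell-like cells had 117 and 124 CPM. *Ctsh*, an aminopeptidase, was spread over lipid-associated (698 and 341 CPM), M2 (426 and 575 CPM) and matrix macrophage-like cells (266 and 324 CPM), Ly6Chigh monocyte-like cells (411 and 439 CPM), dendritic cell-like cells (371 and 423 CPM) and B cell-like cells (246 and 270 CPM), while NK cell-like cells had 4.92 and 9.10 CPM. Of the control classes, the intervals of *Ctsh* met from one class to the next through all of the first 6. *Ctsz*, a carboxypeptidase, was highest in lipid-associated cells (1850 and 1358 CPM), and at 572 and 823 CPM it was one of the leading proteases of matrix macrophage-like cells. The carboxypeptidase *Ctsa* was between 335 and 441 CPM in the M2, lipid-associated and both monocyte classes of control, with intervals that met between neighbours in that order, the lipid-associated value from 14 UMIs. In AdipoΔ/Δ these classes ran from 360 to 642 CPM, and lipid-associated cells (597 to 690) lay above the next class.

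*Ctsd*, the aspartic protease, was also high outside the mononuclear phagocytes. Lipid-associated cells led with 2638 CPM (2113 to 3255) in control and 3590 CPM (3482 to 3701) in AdipoΔ/Δ. NK cell-like cells came next in control, at 710 CPM (667 to 755), with neutrophil-like cells at 709 CPM (659 to 761), and in AdipoΔ/Δ they held 747 and 859 CPM. The intervals of these classes met in control. M2 macrophage-like cells had 300 CPM in control and 706 CPM in AdipoΔ/Δ, and matrix macrophage-like cells 403 and 697 CPM. Their intervals lay below those of NK cell-like cells in control and met them in AdipoΔ/Δ. Ly6Chigh monocyte-like cells had 146 and 253 CPM and Ly6Clow monocyte-like cells 80.4 and 247 CPM. *Ctsd* was detected in 98.6% of control NK cell-like cells, at a median of 6439 UMIs per cell, and in 83.1% of control neutrophil-like cells, at a median of 2968.5 UMIs. With every cell thinned to 1000 UMIs, which left out 199 control and 259 AdipoΔ/Δ cells of lower depth, it was detected in 50.2% of control NK cell-like and 50.2% of control neutrophil-like cells, against 9.92% of Ly6Chigh monocyte-like and 2.84% of B cell-like cells. Per 100 UMIs of *Lyz2*, the lysozyme of myeloid cells, control NK cell-like cells held 543 UMIs of *Ctsd*, against 21.4 in lipid-associated, 20.5 in neutrophil-like and 0.52 in Ly6Chigh monocyte-like cells. The part of free RNA in these values was not tested.

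*Lgmn* had its highest levels in the M2 and lipid-associated subsets. M2 macrophage-like cells had 530 CPM (462 to 606) in control and 1046 CPM (989 to 1106) in AdipoΔ/Δ, and lipid-associated cells 880 CPM (589 to 1263) and 1015 CPM (958 to 1075), so that the intervals of the 2 subsets met in either library. Ly6Clow monocyte-like cells had 147 and 247 CPM of *Lgmn* and Ly6Chigh monocyte-like cells 73.4 and 177 CPM, against 75.6 and 123 CPM in matrix macrophage-like cells. Monocyte-like cells held 51.2% of the *Lgmn* UMIs in control and 12.5% in AdipoΔ/Δ. NK cell-like cells held 5 UMIs in either library.

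A UMI of a protease in lymphocytes need not stem from that cell. After thinning to 1000 UMIs, *Ctsb* was detected in 79.5% of control and 83.7% of AdipoΔ/Δ M2 macrophage-like cells (median depths of 3301.5 and 5641 UMIs before thinning), and in 4.39% and 13.4% of T cell-like cells. Without thinning these shares were 97.7% and 99.4% in M2 and 20.9% and 35.5% in T cell-like cells. *Ctsh*, *Ctsl* and *Lgmn* were detected in at most 2.30% of thinned T cell- or NK cell-like cells. The 9 general macrophage markers summed to 38.1 and 87.7 CPM in T cell-like cells and to 26.7 and 97.9 CPM in NK cell-like cells, higher in the AdipoΔ/Δ library in both, as was *Ctsb* (65.7 and 124 CPM in T cell-like, 58.3 and 105 CPM in NK cell-like cells). The part of free RNA in these lymphocyte values was not tested.

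Each class thus had its own make-up of protease transcripts. Of the summed UMIs of the 10 genes, *Ctsd* made up 68.8% in control NK cell-like cells and 58.9% in control neutrophil-like cells. *Ctss* made up 35.4% in control Ly6Chigh monocyte-like cells, and *Ctsb* 34.6% in Ly6Clow monocyte-like cells. In lipid-associated cells *Ctsb* made up 36.5% in control and 40.5% in AdipoΔ/Δ. *Ctsc* was 16.9% of the control M2 total and 0.534% of the control lipid-associated total. In the AdipoΔ/Δ library, *Ctsd* made up 62.7% in NK cell-like cells and 43.5% in neutrophil-like cells. In thinned cells, a median of 5 of the 10 genes was detected per lipid-associated cell in either library, 4 per M2 cell and 3 per monocyte-like cell of both classes.

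**Figure D2:**
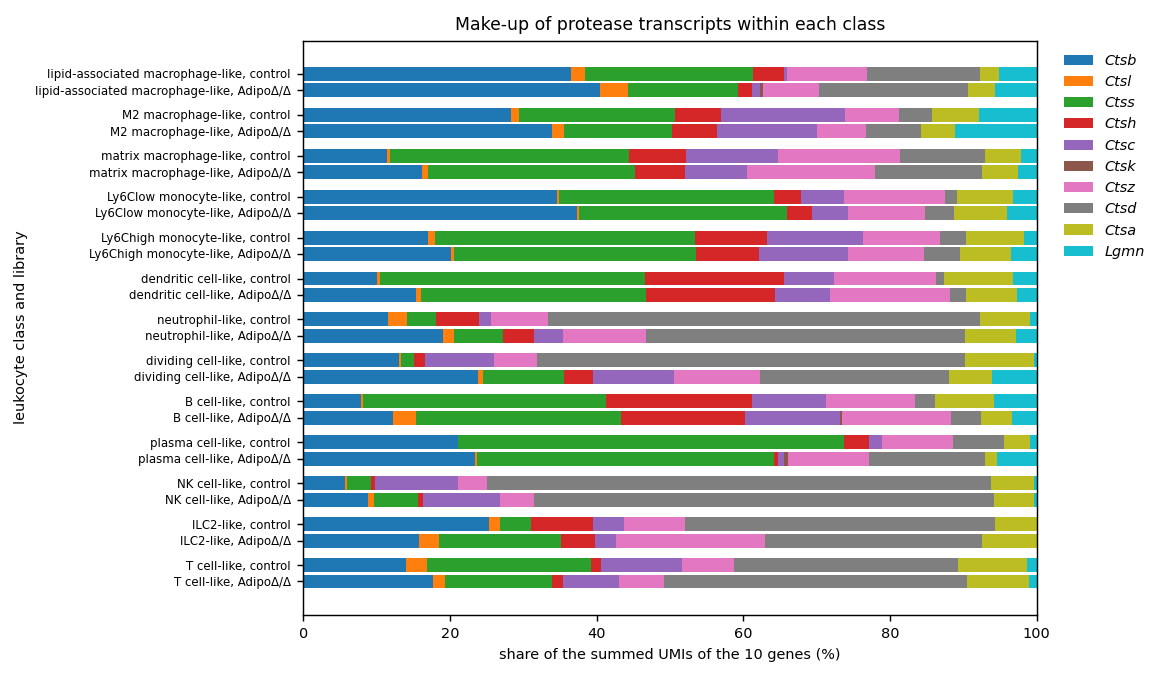
Share of each protease gene (colours) in the summed UMIs of the 10 genes (horizontal axis, %), for each leukocyte class in the control and AdipoΔ/Δ libraries. *Ctsd* takes over 40% of the bar in NK cell- and neutrophil-like cells, *Ctsb* and *Ctss* dominate monocyte-like cells, and *Ctsc* is wide in M2 and thin in lipid-associated macrophage-like cells.

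Between the libraries, the summed proteases of all macrophage-like cells stood at 5968 CPM in control and 10371 CPM in AdipoΔ/Δ, a ratio of 1.74 (1.68 to 1.79). The ratios are AdipoΔ/Δ over control, with conditional binomial 95% intervals, and a gene was counted as past the fold at a ratio of 1.5 or more, or its inverse, with at least 100 UMIs over both libraries in the class. Of the 9 genes with this many UMIs, 5 were past the fold and higher in AdipoΔ/Δ (*Ctsb*, *Ctsd*, *Ctsl*, *Ctsz* and *Lgmn*) and 0 were lower, where 16.2% of all 4828 genes were higher and 4.91% lower. *Ctsl* stood at 67.2 CPM in control and 280 CPM in AdipoΔ/Δ, a ratio of 4.17 (3.12 to 5.69), the largest of the 9. *Ctsd* stood at 448 and 1620 CPM (3.62), *Ctsb* at 1525 and 3588 CPM (2.35), *Lgmn* at 369.6 and 708 CPM (1.92) and *Ctsz* at 592 and 929 CPM (1.57). *Ctsa* had a ratio of 1.27, *Ctss* 1.23, *Ctsh* 1.09 and *Ctsc* 0.75 (0.69 to 0.82). The median gene had a ratio of 1.10 in macrophage-like cells (0.14 on the log2 scale) and the median protease one of 0.65 on the log2 scale. Divided by the median gene, 4 genes stayed past the fold, without *Ctsz*, and the share over all genes was not recomputed.

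These macrophage-like cells were not the same mixture in both libraries. Lipid-associated cells supplied 4.62% of the macrophage-like UMIs in control and 31.8% in AdipoΔ/Δ, and M2 cells 56.5% and 32.7%. With both libraries weighted to the same subset shares, the ratio of the summed proteases was 1.19 and 3 genes were past the fold, *Ctsd* at 1.53, *Ctsl* at 2.03 and *Lgmn* at 1.53, while *Ctsb* was at 1.34. No share over all genes and no interval was computed under this weighting. It gives the 13 control lipid-associated cells a larger part than their 4.62% of the control macrophage-like UMIs. Their summed level was 17044 CPM, or 14095 CPM without the largest cell. In M2 macrophage-like cells, 4 of 9 genes were past the fold and higher (background 15.3%) and 0 lower (background 5.21%), with *Ctsd* at 2.35 (1.94 to 2.87), *Lgmn* at 1.97, *Ctsl* at 1.93 and *Ctsb* at 1.66, whereas *Ctss* was at 0.96 (0.87 to 1.05) and *Ctsa* at 0.97. In matrix macrophage-like cells, 3 of 8 genes were past the fold and higher (background 13.3%) and 0 lower (background 1.92%), namely *Ctsb* at 1.96, *Ctsd* at 1.73 and *Lgmn* at 1.63. Control M2 cells held more UMIs of other types than AdipoΔ/Δ M2 cells. The neutrophil list summed to 1938 CPM in control and 228 CPM in AdipoΔ/Δ, the Ly6Chigh monocyte list to 4446 and 2103 CPM, and the macrophage list to 9953 and 15401 CPM. The part of these UMIs in the M2 ratios was not tested.

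Lipid-associated macrophage-like cells differed less between libraries in sum, with a ratio of 1.04 (0.95 to 1.13), and the genes went both ways. *Ctsl* had a ratio of 2.04 (1.14 to 4.11), *Ctsd* 1.36 (1.10 to 1.70) and *Ctsb* 1.15 (1.00 to 1.33), whereas *Ctsh* had 0.49 (0.32 to 0.78), *Ctss* 0.68 (0.57 to 0.81) and *Ctsz* 0.73 (0.57 to 0.96). Here 3 of 9 genes were past the fold and higher (*Ctsa*, *Ctsc* and *Ctsl*) and 1 lower (*Ctsh*), but so were 36.2% and 11.2% of all genes, and the intervals of *Ctsa* and *Ctsc* held 1. Without the largest of the 13 control cells, the control levels were 164.8 CPM for *Ctsl*, 4946 CPM for *Ctsb*, 2061 CPM for *Ctsd* and 659 CPM for *Ctsh*.

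**Figure D3:**
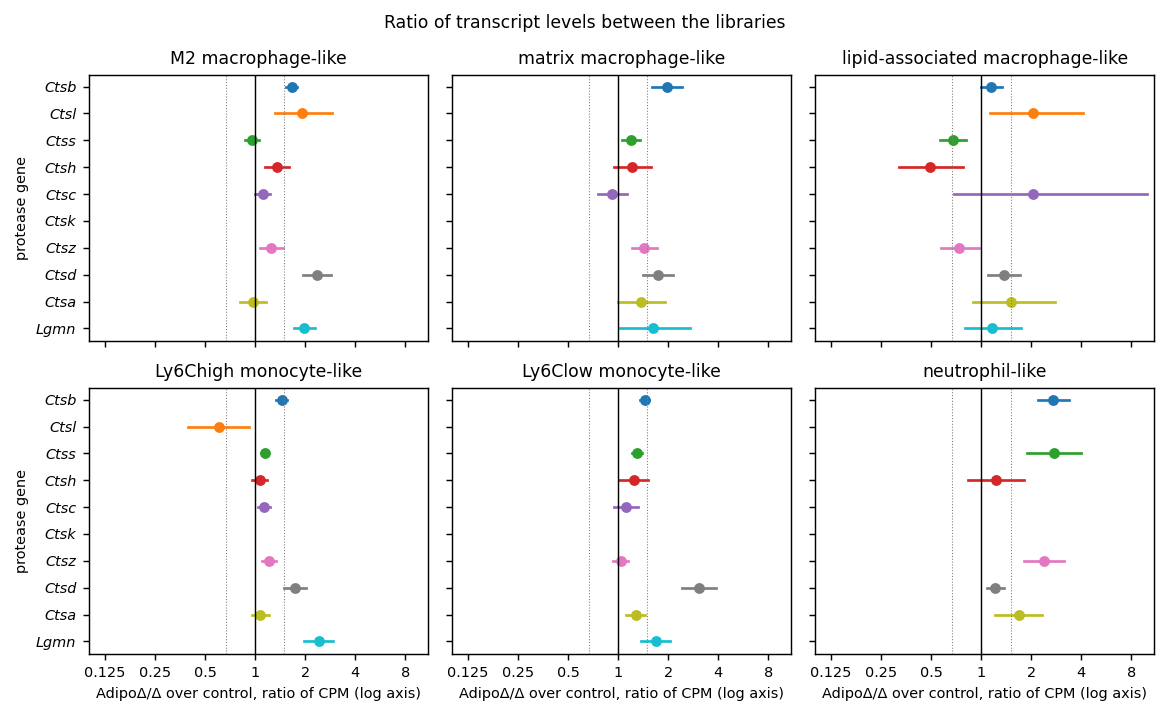
Ratio of CPM, AdipoΔ/Δ over control (horizontal log axis), for each protease gene (vertical axis) in 6 classes. Points are ratios, bars are 95% intervals of counting error, dotted lines mark the 1.5-fold limits, and genes with fewer than 100 UMIs in a class are not drawn. *Ctsb*, *Ctsd* and *Lgmn* lie above 1 in both monocyte panels and in the M2 and matrix panels, and *Ctss*, *Ctsh* and *Ctsz* lie below 1 in the lipid-associated panel.

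Monocyte-like cells had a summed ratio of 1.28 (1.25 to 1.31), from 4351 CPM in control and 5559 CPM in AdipoΔ/Δ. Of 9 genes, 3 were past the fold and higher (background 4.60%) and 0 lower (background 1.16%). They were *Lgmn* at 2.06 (1.80 to 2.37), *Ctsd* at 2.04 (1.80 to 2.31) and *Ctsb* at 1.50 (1.44 to 1.57), 3 of the genes that were past the fold in macrophage-like cells as well. Within the Ly6Chigh and the Ly6Clow class *Ctsb* was at 1.44 each, past the fold in neither. Ly6Clow cells supplied 35.0% of the monocyte-like UMIs in control and 39.8% in AdipoΔ/Δ. *Ctsd* rested on 494 and 527 UMIs, and *Lgmn* on 399 and 431. With the libraries merged without integration before clustering, none of the 9 was past the fold, with *Ctsb* at 1.45, *Ctsd* at 1.45 and *Lgmn* at 1.46. Within Ly6Chigh monocyte-like cells, 2 of 9 genes were past the fold and higher (background 3.93%) and 1 lower (background 1.81%). *Lgmn* stood at 73.4 and 177 CPM, a ratio of 2.41 (1.98 to 2.94), and *Ctsd* at 146 and 253 CPM, a ratio of 1.74. Within Ly6Clow monocyte-like cells, 2 of 8 were higher (background 5.60%) and 0 lower (background 1.73%). *Ctsd* stood at 80.4 and 247 CPM, a ratio of 3.07 (2.43 to 3.90), and *Lgmn* at 147 and 247 CPM, a ratio of 1.68. This class held a cluster led by *Cd300e* (245 control and 216 AdipoΔ/Δ cells) and a smaller one led by *Gngt2*. *Lgmn* was at 1.32 (1.03 to 1.70), not past the fold, in the first and at 2.30 (1.65 to 3.22) in the second, and *Ctsd* at 2.62 and, from under 100 UMIs, 3.49. *Ctsl* was the lower gene, at 0.61 (0.39 to 0.92) in Ly6Chigh monocyte-like cells, from 105 control and 31 AdipoΔ/Δ UMIs. In Ly6Clow cells *Ctsl* was at 1.37 (0.69 to 2.68), from 22 and 18 UMIs, and in all monocyte-like cells at 0.74 (0.52 to 1.03). The macrophage list was also higher in Ly6Chigh monocyte-like cells of AdipoΔ/Δ, at 1216 CPM in control and 2158 CPM in AdipoΔ/Δ, and its part in these ratios was not tested.

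In neutrophil-like cells, the summed proteases had a ratio of 1.64 (1.51 to 1.78), and 4 of 6 genes were past the fold and higher (*Ctsb*, *Ctss*, *Ctsz* and *Ctsa*), against 17.9% of all genes, and 0 were lower (background 2.56%). The main protease of these cells, *Ctsd*, was at 1.21 (1.08 to 1.36). *Ctss* was detected in 8.92% of control and 10.4% of AdipoΔ/Δ cells, and with the cells of the highest doublet scores removed its UMIs fell below 100 and the ratio of *Ctsb* went from 2.72 to 1.83. At a mitochondrial limit of 5%, *Ctsb* was at 1.48. The macrophage list summed to 253 and 504 CPM in neutrophil-like cells, and its part was not tested.

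In the lymphoid classes, few proteases had enough UMIs to compare. NK cell-like cells had a summed level of 1032 CPM in control and 1191 CPM in AdipoΔ/Δ, and their main protease, *Ctsd*, had a ratio of 1.05 (0.96 to 1.15). There *Ctsb* (1.81) and *Ctss* (2.09) were past the fold, 2 of 6 genes (background 3.18%), and 0 were lower (background 1.01%). In T cell-like cells *Ctsd* was at 2.02 (1.71 to 2.40) and *Ctsb* at 1.89, 2 of 6 genes past the fold (background 17.0%), and 0 were lower (background 1.48%). This class pooled 3 clusters in unlike shares, led by *Dapl1* (196 control and 84 AdipoΔ/Δ cells), *Trac* (82 and 111) and *Lef1* (72 and 47). *Ctsd* was at 0.86 (0.57 to 1.29), 1.87 and 1.95 in these clusters, and *Ctsb* at 1.01 (0.53 to 1.88), 1.40 (0.97 to 2.05) and 2.11 (1.25 to 3.62), with under 100 UMIs in the first and the last. In B cell-like cells *Ctsb*, *Ctsc* and *Ctsz* were past the fold, 3 of 5 genes (background 7.58%), with 0 lower (background 3.49%), from 47 to 57 AdipoΔ/Δ UMIs each. Of the 10 genes, 0 had 100 UMIs in ILC2-like cells, where 7.05% of all genes with that many were higher and 4.15% lower. Plasma cell-like cells were 13 and 8 cells, and both genes with enough UMIs, *Ctsb* and *Ctss*, were higher (background 11.5%, with 18.0% lower). Dendritic cell-like cells had a summed ratio of 1.23, with *Ctsb* (1.88) the 1 gene of 6 past the fold (background 9.01%) and 0 lower (background 2.44%). Dividing cell-like cells, which are grouped by cell-cycle genes and not by lineage, had 5 of 7 genes past the fold and higher (background 14.8%) and 0 lower (background 7.88%), but *Ctsd* was at 0.94 (0.81 to 1.09). Their macrophage list summed to 224 CPM in control and 2106 CPM in AdipoΔ/Δ, and its part in these values was not tested.

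Over all kept cells, the summed level was 2596 CPM in control and 5246 CPM in AdipoΔ/Δ, a ratio of 2.02, and 5 of 9 genes were past the fold and higher (background 12.5%) with 0 lower (background 3.48%). This ratio was split by class. With AdipoΔ/Δ levels at the class shares of the control library it was 1.32, and with control levels at the class shares of AdipoΔ/Δ it was 1.63. With AdipoΔ/Δ shares and levels as the base these were 1.24 and 1.53. *Lgmn*, at 4.19 over all cells, was at 2.01 with control shares and 1.63 with AdipoΔ/Δ shares. *Ctsl*, at 4.60 over all cells, was at 1.26 with control shares and 1.90 with AdipoΔ/Δ shares, and the effect of the shares alone was 2.42 at control levels and 3.66 at AdipoΔ/Δ levels. The order of both genes thus turned with the base of the split. In a sort of leukocytes, more cells of a class and more RNA per cell of that class both raise such a sum, and the mass of tissue per library is not known.

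The cells that hold these transcripts differed as well. Monocyte-like cells held 62.7% of the protease UMIs in control and 19.7% in AdipoΔ/Δ, and macrophage-like cells 15.3% and 63.5%. Lipid-associated cells held 4.47% of the *Ctsl* UMIs in control and 66.2% in AdipoΔ/Δ, 3.50% and 45.2% of *Ctsb*, and 0.103% and 5.29% of *Ctsc*. For *Ctsd*, NK cell-like cells held 31.8% and neutrophil-like cells 23.8% of the control UMIs, and lipid-associated cells 45.5% of the AdipoΔ/Δ UMIs.

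**Figure D4:**
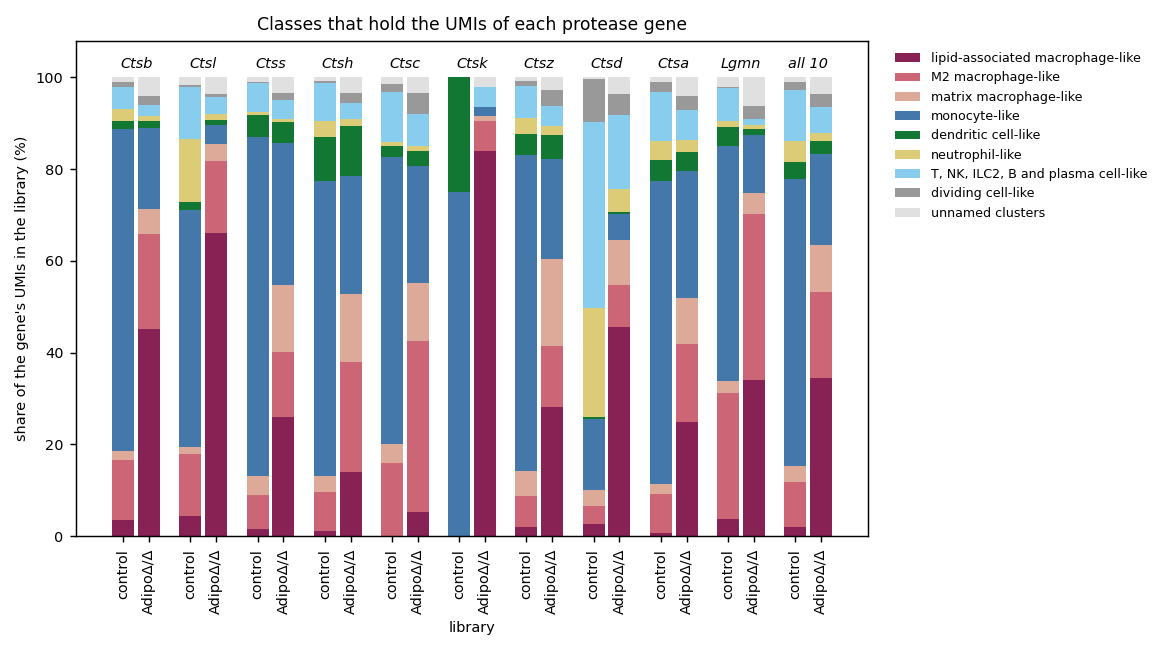
Share of each gene's UMIs in a library (vertical axis, %) that lay in each group of classes (colours), for the control and AdipoΔ/Δ libraries. Monocyte-like cells hold 62.7% of the summed UMIs in control, macrophage-like cells hold 63.5% in AdipoΔ/Δ, and lipid-associated cells hold 84.0% of *Ctsk* in AdipoΔ/Δ.

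In single cells, the 10 genes took a median of 0.648% of the UMIs of a control M2 macrophage-like cell and 0.936% of an AdipoΔ/Δ one. The ranges from the 5th to the 95th percentile overlapped widely, 0.271 to 1.92% and 0.428 to 1.74%. The medians were 1.72% and 1.62% in lipid-associated cells, 0.463% and 0.588% in Ly6Clow monocyte-like cells, and 0.401% and 0.464% in Ly6Chigh monocyte-like cells. Cells of 1 library are not replicates, and no test was made between these distributions.

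**Figure D5:**
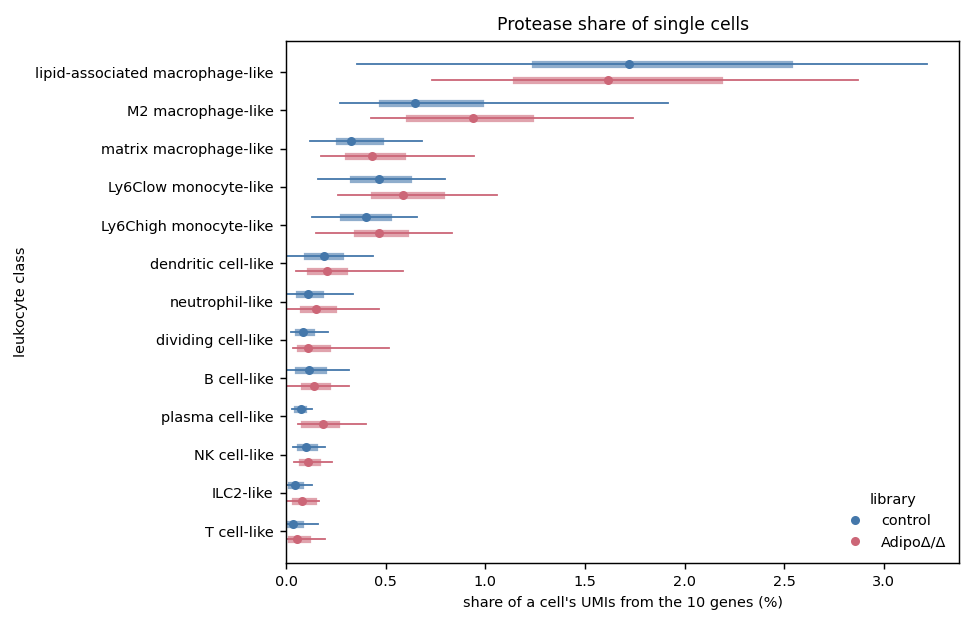
Share of a cell's UMIs that came from the 10 protease genes (horizontal axis, %), by class and library. Points are medians over cells, thick bars run from the 25th to the 75th percentile and thin bars from the 5th to the 95th. Lipid-associated cells have medians of 1.72% (control) and 1.62% (AdipoΔ/Δ), and those of all other classes stay below 1%.

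Other genes of the lysosome were taken from fixed lists. In macrophage-like cells, 6 of 18 acid hydrolases with at least 100 UMIs were past the fold and higher and 0 lower, beside 16.2% and 4.91% of all genes, and the same background applies to the other lists in these cells. The 3 with the most UMIs were *Psap*, which encodes the saposin precursor, at a ratio of 1.43 (1.37 to 1.50), *Hexa* at 1.59 and *Lipa*, the lysosomal acid lipase, at 2.37. The median of this list was 0.38 on the log2 scale, against 0.14 for all genes and 0.65 for the proteases. Of 7 lysosomal membrane and lumen genes, 3 were past the fold (*Cd63* at 4.65, *Cd68* at 2.56 and *Npc1* at 2.01, named after their values were seen), whereas the 3 with the most UMIs were not: *Laptm5* was at 1.10, *Npc2* at 0.93 and *Lamp1* at 1.30. Of 4 sorting genes 1 was past the fold, *Igf2r* (the large mannose 6-phosphate receptor), at 14.3 (4.82 to 69.8) from 3 control UMIs, while *M6pr* was at 1.03. None of the 3 transcriptional regulators, *Tfeb* (0.87), *Tfe3* (1.07) and *Mitf* (1.21), was past the fold. Among partners in antigen processing, *Cd74* was at 0.97, *H2-DMa* at 0.84 and *Ifi30*, the lysosomal thiol reductase, at 1.06. These ratios pool the 3 macrophage-like subsets, and the part of their unlike shares was not tested. In M2, matrix and lipid-associated cells, 6 of 12, 2 of 11 and 6 of 11 acid hydrolases were past the fold and higher. For membrane and lumen genes these counts were 3 of 7, 0 of 5 and 0 of 7 (background 15.3%, 13.3% and 36.2%). In either list 0, 0 and 1 were lower (background 5.21%, 1.92% and 11.2%). In monocyte-like cells, *Cd74* was at 2.98 (2.87 to 3.10) and *H2-DMa* at 1.55, and 2 of 19 acid hydrolases were past the fold and higher and 0 lower (background 4.60% and 1.16%).

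The inhibitors differed from each other. In macrophage-like cells, *Cstb* (stefin B) stood at 328 CPM in control and 980 CPM in AdipoΔ/Δ, a ratio of 2.99 (2.62 to 3.43), and *Cst3* (cystatin C) at 2492 and 2162 CPM, a ratio of 0.87 (0.82 to 0.91). These ratios pool the subsets as well. Of 2 inhibitors with at least 100 UMIs, 1 was past the fold and higher in M2 and in matrix cells (background 15.3% and 13.3%). In lipid-associated cells 0 were higher (background 36.2%). None was lower in the 3 subsets (background 5.21%, 1.92% and 11.2%). *Cstb* was also past the fold in monocyte-like cells, at 1.64. Of 5 other cathepsins, *Ctsw* and *Ctso* had at least 100 UMIs in both libraries, and *Ctse* had 69 and 55 UMIs. *Ctsw*, known from cytotoxic lymphocytes, was highest in NK cell-like (545 and 644 CPM) and dividing cell-like cells (594 and 320 CPM), the class in which *Ctsd* was also high, and stood at 32.2 and 0 CPM in M2 macrophage-like cells. *Ctso* stood at 22.4 and 24.8 CPM over all cells.

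Across the 13 classes of both libraries, 26 points that share their libraries and depth, the genes most like the mean profile of the proteases were *Tmem106a* (Pearson r of 0.941 on log2(CPM + 10)), *Grn* (0.926), *Cd68* (0.922), *Atp6v0c* (0.921) and *Lipa* (0.918), out of 5085 genes with at least 500 UMIs. *Lgmn* and *Ctsb* were each other's nearest gene (0.925), and *Ctss* was nearest to *Ctsz* (0.909), whose own nearest gene was *Psap* (0.949). *Ctsa* was nearest to *Aif1* (0.933), *Ctsh* to *Lmo2* (0.927), *Ctsl* to *Ms4a7* (0.878), *Ctsc* to *Ppp1r21* (0.877) and *Ctsk* to *Spp1* (0.728). *Ctsd* stood apart, with *Rhoc* as its nearest gene (0.827) and correlations of -0.04 with *Ctsh* and 0.00 with *Ctss*. These correlations are descriptions of 26 class sums and carry no test.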

How the data were processed

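CD45+ BAT cells were profiled in 2 libraries with the 10x Genomics 3′ v3.1 chemistry. Cell Ranger was run by the authors on mm10, and the deposited values are raw UMI counts per gene and barcode, not normalized. Barcodes needed 200 detected genes or more and a mitochondrial share of no more than 10% (the limit of 2% in the study's methods would keep 51.4% of control and 37.7% of AdipoΔ/Δ barcodes). They were normalized with SCTransform 0.4.2 and integrated by anchors in Seurat 5.3.0 (R 4.3.3) on 1944 of 2000 features, without the proteases, the lysosomal lists and the genes named in the study. Clusters used 20 components at a resolution of 1.0. A name needed a marker score of at least 1 and 3 markers detected in at least 10% of cells. Scrublet (Scanpy 1.11.5) called 8 control and 4 AdipoΔ/Δ doublets, too few to rely on, and doublets were left in. UMIs were summed per class and library. Intervals are exact (Poisson, Clopper-Pearson or conditional binomial, 95%, SciPy 1.17.1). Scripts were tested on simulated data. The proteases and all lists were chosen with earlier results of these data known. Named are the 10 proteases, per list the 3 genes with the most UMIs, other cathepsins with at least 100 UMIs, and the genes nearest in profile. Gene positions are from GENCODE M21, and promoters from RefSeq. Depth per library was 10753113 and 11316418 UMIs in kept cells. Alternatives varied filters, clustering, doublets, scaling, thinning and weighting.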

Additional observations from a re-analysis of the deposited data

Results flagged for a closer look

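*Ctsl* was past the 1.5-fold limit in opposite directions in different classes, with intervals of counting error that did not hold 1. Its ratio was 0.61 in Ly6Chigh monocyte-like cells, against 1.93 in M2 and 2.04 in lipid-associated macrophage-like cells. The difference between these classes was not tested, because each class had 1 library per condition. The macrophage values rest on 33 and 11 control UMIs. In all monocyte-like cells the *Ctsl* ratio was 0.74, with an interval that held 1 (0.52 to 1.03).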

How the results depend on the processing

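No paired analysis was possible because both libraries carry replicate number 1 only, and no replicate could be left out. Scaling to the median gene, setting equal subset shares for the counts, and adding the unnamed cluster led by *Lpl* to the macrophages were chosen after seeing the data. The counts of proteases highest in a macrophage-like subset (9 in control, 10 in AdipoΔ/Δ) were the same under every alternative that recomputed them, and the summed ratios stayed above 1. In macrophage-like cells the summed ratio of 1.74 was 1.61 with a mitochondrial limit of 20%, 1.65 with all 2000 features, 1.56 with merged libraries, 1.57 divided by the median gene, 1.25 with equal weight per cell, 1.20 in thinned cells and 1.19 with equal subset shares. The 5 genes past the fold there became 3 with equal weight per cell, 2 in thinned cells and 3 with equal subset shares, and otherwise 4 to 7. In monocyte-like cells the summed ratio of 1.28 was 1.21 with a mitochondrial limit of 5%, 1.24 with all features, 1.20 with merged libraries, 1.24 without the highest doublet scores and 1.20 divided by the median gene. The 3 genes past the fold became 0 with merged libraries, and otherwise stayed at 2 or 3. Neither the share of all genes past the fold nor the share highest in a macrophage-like subset was computed under the alternatives. In neutrophil-like cells the summed ratio of 1.64 was 1.31 and 1.34 with mitochondrial limits of 5% and 20%, 1.345 with merged libraries, 1.37 without the highest doublet scores, 1.43 with equal weight per cell, 1.47 in thinned cells and 1.37 divided by the median gene. The cause of these shifts was not tested. Of 303 ratios of single genes under the alternatives, 234 lay within the counting interval of the reported value, 69 outside it, and 0 had a called direction reversed. *Ctss* in macrophage-like cells, which was not past the fold, went from 1.23 to 0.79 in thinned cells. Also not past the fold there, *Ctsa* ranged from 0.93 to 1.57 over the alternatives and *Ctsc* from 0.54 to 1.10. Depth limits the control lipid-associated cells most, where 3 UMIs correspond to 91.0 CPM.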
